A study of Mus musculus with 12 samples.

Results

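The proteasome is the large protease that degrades most ubiquitin-tagged proteins, and its subunits are encoded by genes whose mouse symbols begin with Psm. The genes described here were taken by name from the count files: all symbols starting with Psma, Psmb, Psmc, Psmd, Psme, Psmf or Psmg and a digit, without pseudogenes and without Psmb8, Psmb9 and Psmb10, which encode the interferon-inducible catalytic subunits of the immunoproteasome. The rule gave 47 of the 27179 genes in the files. By role they were 8 genes for alpha subunits and 8 for beta subunits of the 20S core, 6 for ATPases and 11 for non-ATPase subunits of the 19S cap, 5 for activators or inhibitors of the core, and 7 for assembly chaperones. The other 2, Psmc3ip and Psme3ip1, carry the prefix because their products bind a proteasome protein and are not subunits.

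The cells were AML246, 1 murine cytogenetically normal acute myeloid leukemia that is p53-/- and carries a GFP-linked short hairpin RNA against PU.1, a transcription factor that Spi1 encodes and myeloid cells need. They were sorted as GFP-positive bone marrow cells from leukemic C57BL/6 recipients. Doxycycline (Dox) shuts off the hairpin and PU.1 returns gradually. There were 4 groups of 3 libraries: untreated (GFPhigh), and Dox for 2 days (GFPhigh-mid), 4 days (GFPmid) and 6 days (GFPlow). All groups share the leukemia, the loss of p53 and the hairpin. The sort gate moved with the day, so time and gate cannot be told apart, and no Dox-treated cells without the hairpin were analysed here. Titles name the replicates as technical whereas the design text has triplicate mice. The p-values therefore measure only how these samples vary, and that variation may be technical.

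In the proteasome the 20S core is a barrel of stacked rings. The outer rings hold the alpha subunits, which form the gate, and the inner rings hold the beta subunits, of which Psmb5, Psmb6 and Psmb7 carry the constitutive catalytic sites. The 19S cap binds ubiquitin-tagged proteins, unfolds them with a ring of ATPases and feeds them to the core, and dedicated chaperones assemble the rings before they join. Subunit genes are transcribed in all cells, and the factor NFE2L1 raises them together when proteasome activity falls. In cells of the immune system interferon replaces the 3 catalytic subunits and induces the PA28 activator.

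The 12 libraries held 4918920 to 7356166 counts, and 3 counts equalled 0.408 to 0.610 CPM (counts scaled to 1 common library total). Levels are given as CPM after TMM scaling, which takes the typical gene as unchanged. With Dox the Spi1 level rose from 62.5 ± 7.29 CPM to 110 ± 12, 260 ± 14.1 and 458 ± 33.9 CPM at days 2, 4 and 6 (SD, n = 3 each). Leukemic progenitor markers summed to 28280 to 32183 CPM in untreated libraries and 7498 to 9463 CPM at day 6. All 6 were measured, although Cd34 was near 0. Myeloid markers, Spi1 itself among them, summed to 3555 to 4787 CPM untreated, 5642 to 5982 CPM at day 4 and 4920 to 5364 CPM at day 6. Stromal and endothelial markers summed to 88.1 to 130 CPM untreated and 21.7 to 28.1 CPM at day 6. B lineage, erythroid and megakaryocyte markers summed to at most 8.46 CPM in any library. The part of these shifts in the differences of the proteasome genes was not tested. Day 6 replicate 2 stood apart. The sum of 6 T and NK cell markers was 43.7 CPM in it and at most 3.51 CPM in the other 11 libraries, with Lck at 20.7 and Cd8a at 11.4 CPM. In the same library Itgam was 1432 CPM against 2630 and 2766 in the other day 6 libraries, and Csf1r was 727 CPM against 284 and 303. In addition, 45 of the 47 genes passed the filter on low counts. Psma8, which is testis-specific, had 2 counts in all 12 libraries together, and Psmb11, the thymus-specific catalytic subunit, had 1. Counts at day 6 are therefore given with and without replicate 2, and the proteasome genes whose call changed without it are named.

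Across the 45 tested genes the differences were small beside those of the transcriptome. Against untreated cells, edgeR's quasi-likelihood test with Benjamini-Hochberg adjustment over all 12057 tested genes called 0 proteasome genes at day 2, where 1.45% of all genes were called (1.05% higher and 0.406% lower). DESeq2 and limma voom also called 0, and 1 gene, Psmd14, was under an unadjusted p of 0.05. At day 4, 4 genes were higher and 3 lower, or 15.6% of the 45 against 42.4% of all genes (22.1% higher and 20.2% lower). At day 6, 6 were higher and 10 lower, or 35.6% against 67.9% of all genes (35.0% higher and 32.9% lower). The median absolute log2 fold change was 0.14 for the 45 genes and 0.35 for all genes at day 4, and 0.23 and 0.64 at day 6. A change of over 1.5-fold was seen in 9 of the 45 genes at day 6 and in 53.2% of all tested genes. From day 2 to day 4, 4 proteasome genes were higher and 3 lower, beside 25.2% of all genes (15.0% and 10.2%). From day 4 to day 6, 1 was higher and 5 lower, beside 46.3% of all genes (23.6% and 22.6%). Without day 6 replicate 2 this step had 0 higher and 23 lower, beside 28.0% and 28.0% of all genes. The rise of Psma6 was lost. The added falls were Psma4, Psma5, Psmb1, Psmb2, Psmb4, Psmb5, Psmb6, Psmc1, Psmc3, Psmc4 and Psmc5 and also Psmd1, Psmd2, Psmd3, Psmd8, Psmd11, Psmd12 and Psme4. A single test of any change over the 4 groups called 14 of the 45 genes (31.1%) and 68.7% of all genes. The signed medians were near 0 at every day: -0.05, 0.03 and -0.08 for the proteasome genes.

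Psma1, Psmd13, Psme1 and Psme2 rose at day 4, and Psmc3ip, Psmd5 and Psmg1 fell. The day 4 and day 6 comparisons share the untreated libraries, so values for both days are given side by side for each gene. The treated and untreated libraries did not overlap for 15 of the 45 genes at day 4 and for 15 at day 6 (33.3%). Over all tested genes this share was 58.3% at day 4 and 68.2% at day 6, beside the 42.4% and 67.9% called. In bulk RNA such a difference cannot separate fewer cells of a type from less RNA per cell.

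**Figure D1:**
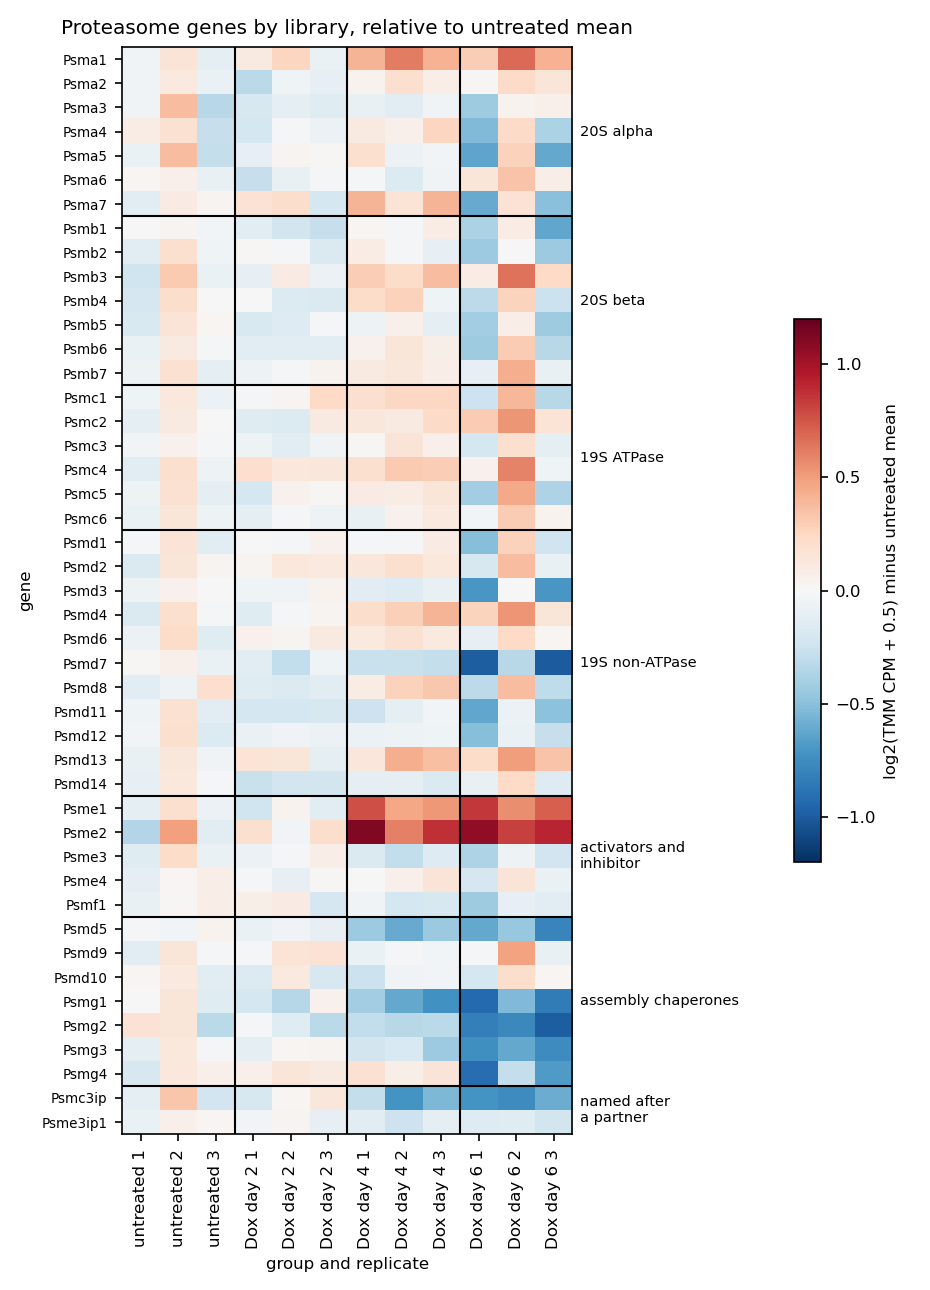
Level of each of the 45 tested proteasome genes (rows, grouped by role) in each of the 12 libraries (columns), as log2(TMM CPM + 0.5) minus the mean of the 3 untreated libraries. Psme1 and Psme2 are red at days 4 and 6, Psmg1 to Psmg3 and Psmd5 blue, and most other rows are red in day 6 replicate 2 and pale or blue in replicates 1 and 3.

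The day 6 counts depended on replicate 2. That library held the highest of the 3 day 6 values for 41 of the 45 genes and for 30 of the 31 tested 20S and 19S subunits. Relative to the untreated mean, the median log2 level of the 45 genes was -0.32 in replicate 1, 0.23 in replicate 2 and -0.23 in replicate 3. The level in replicate 2 was a median 1.28 times the mean of the other 2 libraries, with 1.44 for beta subunits, 1.41 for 19S non-ATPase subunits, 1.40 for ATPases, 1.25 for alpha subunits, 1.23 for chaperones and 1.13 for activators and the inhibitor. Over all tested genes this ratio had a median of 0.994. Without the library, 5 proteasome genes were higher and 23 lower at day 6 (36.1% and 34.6% of all genes), and the median was -0.29. All 10 genes called lower with 12 libraries were called lower without it, and so were 5 of the 6 called higher, Psmd4 being the exception. The left-out library was also the 1 with the raised T and NK marker sum, and the part of that in these values was not tested. Among untreated libraries replicate 2 was also the highest, for 40 of the 45 genes, by a smaller median of 0.14.

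**Figure D2:**
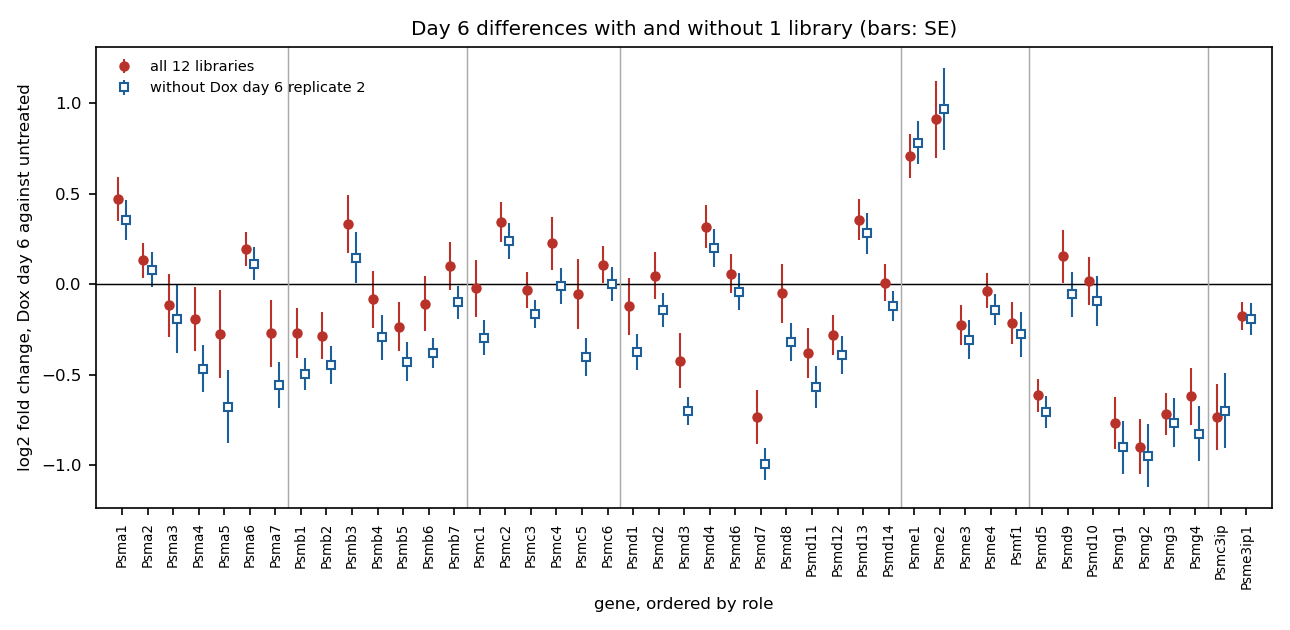
Log2 fold change of each tested gene at day 6 against untreated cells, with all 12 libraries (filled circles) and without day 6 replicate 2 (open squares), bars giving the SE and vertical lines separating the roles in the order of the text. The beta subunits Psmb1, Psmb2, Psmb4, Psmb5 and Psmb6 lie below 0 in both, and further from it without the library. Psme1 and Psme2 lie above 0 in both.

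The promoters of the genes were read because PU.1 belongs to the ETS family, which binds GGAA sites, and because NFE2L1 and NFE2L2 share the antioxidant response element. RefSeq (GRCm38.p6) gave sequences of 250 bases before to 50 after the start for 39 of the 47 genes, 43 promoters in all, searched on both strands. The ETS letters CCGGAAG occurred in 17 of the 43 (39.5%), in 8.86% of all 32851 promoters and in 18.3% of those of tested genes. Among the genes called at day 6, they occurred in the promoters of 5 that fell, Psmg1, Psmg3, Psmd11, Psmd12 and Psmc3ip, and of 3 that rose, Psmc2, Psmd4 and Psmd13. The other genes with these letters were not called at day 6 against untreated cells with all libraries: Psma6, Psmc1, Psmc6, Psmd2, Psmd6, Psme3, Psme3ip1 and Psme4. The PU.1 letters GAGGAAGT, which can share bases with other ETS sites, were in 3 (6.98%, against 3.20% of all and 3.40% of those of tested genes). The antioxidant letters TGACNNNGC were in 6 (14.0%, against 12.4% and 14.5%), Psmb5 and Psmb6 among them, and the NF-Y letters CCAAT in 15 (34.9%, against 37.4% and 38.2%). The letters of the interferon-stimulated response element (GAAA, any 2 bases, GAAA), added after the values were seen, were in 5 (11.6%, against 3.44% and 3.20%). Of their genes Psme1 and Psmd4 were called higher at day 6, Psmg4 was called lower, and Psmb3 and Psmd9 were not called. A match is a description of letters and not of binding.

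The following stretches show these letters in 4 genes described in turn: a chaperone gene that fell at days 4 and 6, a lid gene that rose, the gene of the chymotrypsin-like subunit, and a PA28 gene. Capitals mark the motif. Psmg1 (minus strand) and Psmb5 (minus strand) are shown for the 150 bases before the start, and Psmd13 and Psme1 (both plus strand) for 120 bases before to 30 after it.
Psmg1, chr16:95990961-95991110, CCGGAAG from base 69 before the start: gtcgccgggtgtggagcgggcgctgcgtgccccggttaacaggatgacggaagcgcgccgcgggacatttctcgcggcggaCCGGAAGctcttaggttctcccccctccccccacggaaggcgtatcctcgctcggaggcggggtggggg
Psmd13, chr7:140882274-140882423, CCGGAAG from base 6 before the start: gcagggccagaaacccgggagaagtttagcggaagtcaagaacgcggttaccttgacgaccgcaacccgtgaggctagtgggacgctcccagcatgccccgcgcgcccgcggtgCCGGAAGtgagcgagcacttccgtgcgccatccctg
Psmb5, chr14:54617996-54618145, TGACNNNGC from base 47 before the start: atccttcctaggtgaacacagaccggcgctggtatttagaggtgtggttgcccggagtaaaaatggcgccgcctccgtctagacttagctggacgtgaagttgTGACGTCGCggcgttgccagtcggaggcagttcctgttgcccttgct
Psme1, chr14:55578374-55578523, interferon-stimulated element on the other strand from base 9 after the start: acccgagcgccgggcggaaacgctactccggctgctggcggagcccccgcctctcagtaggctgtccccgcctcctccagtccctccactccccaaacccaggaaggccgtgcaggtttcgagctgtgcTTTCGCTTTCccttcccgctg
The part of these letters in the differences of the 4 genes was not tested.

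Among the 7 tested alpha subunits of the core, 1 rose at day 6 and 0 fell, beside 35.0% and 32.9% of all genes. Psma1 measured 133, 153 and 128 CPM in the untreated libraries, 148, 164 and 130 on day 2, 183, 211 and 184 on day 4, and 168, 221 and 184 on day 6. The day 4 and day 6 libraries all lay above the untreated ones. The log2 fold change was 0.48 ± 0.122 (SE) at day 4 and 0.47 ± 0.123 at day 6, with edgeR adjusted p of 0.00721 and 0.00422. Psma5, the alpha subunit with the most negative value, measured 14.3, 19.8 and 12.4 CPM untreated and 9.60, 18.5 and 9.76 CPM at day 6. Its groups overlapped through replicate 2, the log2 fold change was -0.28 ± 0.244 (edgeR adjusted p = 0.327), and without that library it was -0.68 (0.00829). About 55.4% of the 50-base stretches of its longest coding transcript also occur in other annotated genes, so its level is uncertain.

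Psma7 had the largest level per kb of transcript among the alpha genes, 245 ± 20.3 CPM per kb in untreated cells. It measured 285, 241 and 286 CPM at day 4 and 141, 242 and 152 CPM at day 6, against 196, 231 and 220 CPM untreated. Every day 4 library was above every untreated one, and day 6 replicates 1 and 3 were below all of them. Neither day passed the test against untreated cells, with log2 fold changes of 0.33 and -0.27. The step from day 4 to day 6 did, at -0.60 ± 0.185 (edgeR adjusted p = 0.0192). Psma6 moved the other way over that step, by 0.27 (edgeR adjusted p = 0.0369), from 154, 139 and 152 to 173, 198 and 165 CPM. That call was lost without day 6 replicate 2, and with library totals its sign turned to -0.13. Without that library Psma4, Psma5 and Psma7 were also called lower than in untreated cells at day 6, beside 34.6% of all genes.

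Of the 7 tested beta subunits, 0 were called in either direction at day 6 by edgeR, DESeq2 or limma voom, and 1, Psmb2, was under an unadjusted p of 0.05. Of all genes edgeR called 67.9% there. The catalytic subunit Psmb5, which carries the chymotrypsin-like site, measured 62.1, 78.4 and 71.5 CPM untreated, 62.1, 63.0 and 69.1 on day 2, 67.2, 73.5 and 64.9 on day 4, and 52.7, 74.4 and 52.3 on day 6. Day 6 replicates 1 and 3 were below all untreated libraries and replicate 2 was among them. The day 6 log2 fold change was -0.24 ± 0.135 (edgeR adjusted p = 0.137), and -0.43 (0.00247) without replicate 2.

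Psmb6, with the caspase-like site, measured 81.7, 93.0 and 84.9 CPM untreated, 78.8, 78.3 and 79.0 on day 2, 89.4, 95.8 and 90.7 on day 4, and 64.2, 107 and 68.5 on day 6. Its day 2 libraries all lay just below the untreated ones, without passing the test. Its day 6 log2 fold change was -0.11 ± 0.152 (edgeR adjusted p = 0.540), -0.38 (0.000945) without replicate 2 and 0.03 without replicate 1. Psmb7, with the trypsin-like site, measured 108, 128 and 105 CPM untreated, 109, 112 and 117 on day 2, 122, 125 and 120 on day 4, and 106, 153 and 106 on day 6. Of its day 6 libraries, replicate 2 alone was outside the untreated range. The log2 fold change was 0.10 ± 0.132 with all libraries and -0.10 without that library, neither past the threshold. For Psmb7, 28.1% of the 50-base stretches of the transcript also occur in Nek6, and for Psmb5 57.1% occur in other genes, a Psmb5 pseudogene among them, so both levels are uncertain.

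The other beta subunits have no catalytic site in the constitutive core. Psmb2 had the most negative value at day 6, with 138, 174 and 147 CPM untreated and 112, 152 and 112 CPM at day 6, a log2 fold change of -0.28 ± 0.128 (edgeR adjusted p = 0.0643). Psmb3 had the most positive one, with 38.3, 56.4 and 42.7 CPM untreated and 48.0, 71.0 and 53.3 CPM at day 6, a log2 fold change of 0.33 ± 0.159 (edgeR adjusted p = 0.0803). In both genes the groups overlapped. With library totals the Psmb3 value turned to -0.17, and 55.8% of the 50-base stretches of its transcript occur in other annotated genes, so its level is uncertain. Psmb4 was the most abundant member per kb, at 428 ± 62.0 CPM per kb in untreated cells and 403 ± 94.5 at day 6. Without replicate 2, 5 of the 7 were called lower at day 6, beside 34.6% of all genes: Psmb1, Psmb2, Psmb4, Psmb5 and Psmb6.

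**Figure D3:**
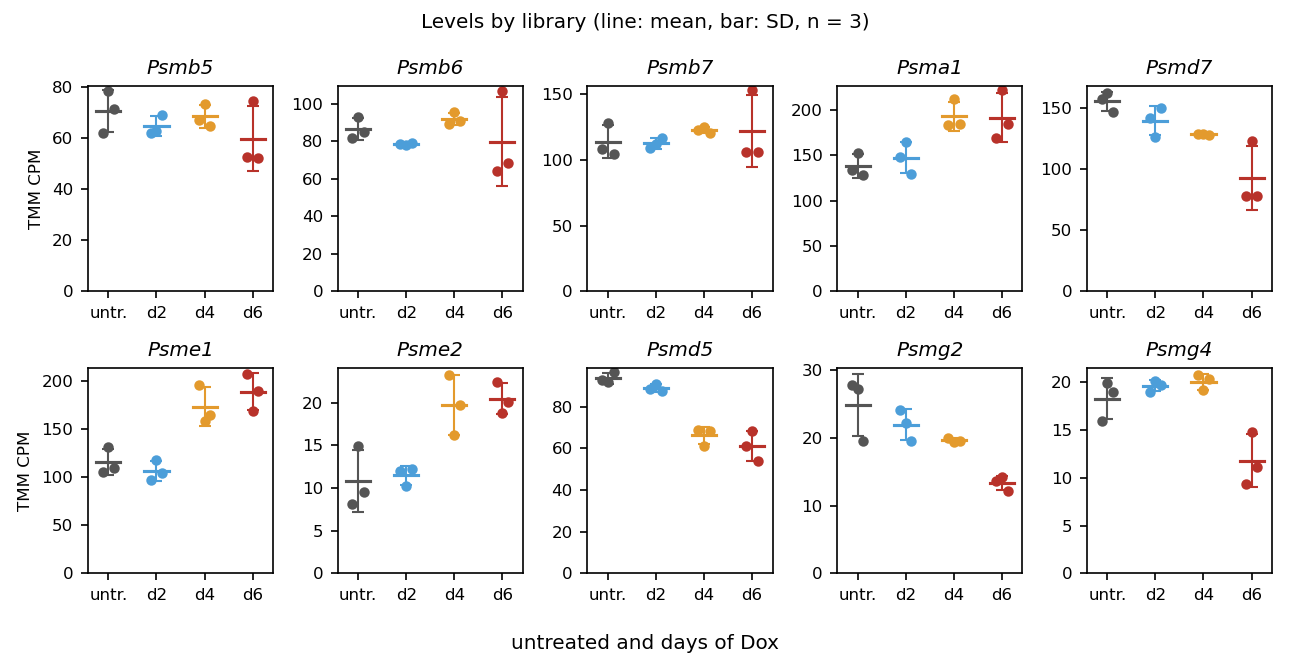
TMM CPM in each library (points) for the 3 catalytic subunits and 7 other genes, in untreated cells (untr.) and after 2, 4 and 6 days of Dox (d2, d4, d6), with the mean (line) and SD (bar, n = 3). Psme1 and Psme2 sit above all untreated libraries from day 4, and Psmg2 and Psmg4 fall below them at day 6. For each catalytic subunit the day 6 range overlaps the untreated range, and the day 2 libraries of Psmb6 lie just below it.

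Psmb8, Psmb9 and Psmb10 encode the interferon-inducible counterparts of Psmb5, Psmb6 and Psmb7, and the ratio of each pair within a library does not depend on scaling. The counts were not corrected for gene length, so a ratio does not give the excess of 1 transcript over the other. Of the 50-base stretches, 57.1% in Psmb5, 28.1% in Psmb7 and 12.5% in Psmb9 (with Tap1) also occur in other genes, so the ratios are uncertain. The ratio of Psmb8 to Psmb5 read counts was 4.71 ± 0.350 in untreated cells, 5.59 ± 0.617 at day 4 and 5.91 ± 1.11 at day 6 (exact two-sided permutation p = 0.2 and 0.3). The ratio of Psmb9 to Psmb6 was 2.94 ± 0.466 untreated and 3.53 ± 1.15 at day 6, where the libraries gave 4.30, 2.20 and 4.09 (exact permutation p = 0.6). The ratio of Psmb10 to Psmb7 was 0.798 ± 0.0570 untreated, 1.46 ± 0.273 at day 4 and 0.947 ± 0.0515 at day 6. Both days lay above all untreated libraries, with an exact permutation p of 0.1, which is the smallest that 3 against 3 can give, and an adjusted p of 0.45 over the 9 ratios compared. Psmb10 itself rose at day 4 by a log2 fold change of 0.97 ± 0.194 (edgeR adjusted p = 0.00191) and fell again to day 6 by 0.61 on the log2 scale (edgeR adjusted p = 0.0214). With TMM scaling and all libraries neither Psmb8 nor Psmb9 was called at any day. With library totals both were called lower at day 6 against untreated cells and from day 4 to day 6. Without day 6 replicate 2, Psmb8 was called higher from day 2 to day 4.

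**Figure D4:**
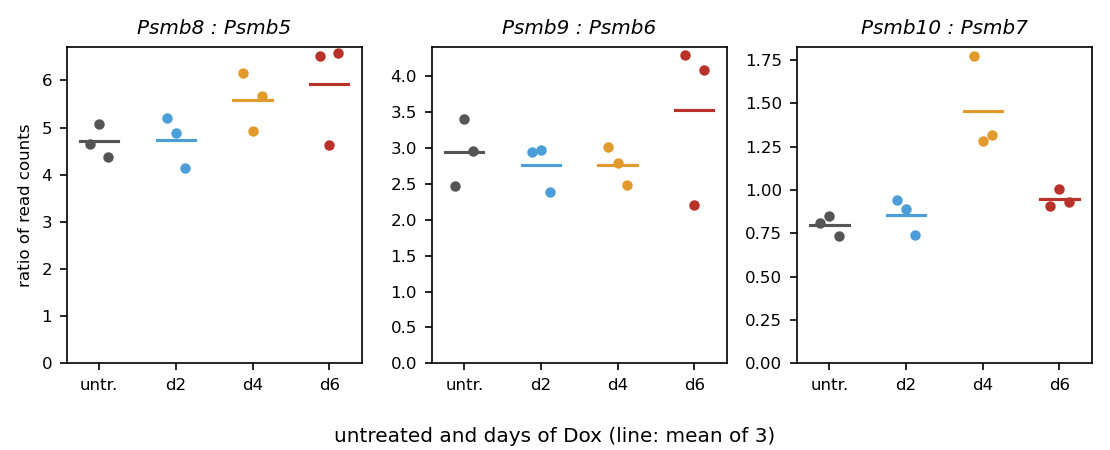
Ratio of read counts of each immunoproteasome catalytic gene to its constitutive counterpart in each library (points), with the mean of 3 (line), for untreated cells (untr.) and days 2, 4 and 6 of Dox. The Psmb10 to Psmb7 ratio is highest at day 4, and in the other 2 panels day 6 replicate 2 is the lowest of its group.

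Among the 6 ATPases of the 19S cap, 1 rose at day 6 and 0 fell, beside 35.0% and 32.9% of all genes. Psmc2 measured 89.3, 104 and 96.1 CPM untreated, 106, 104 and 113 on day 4, and 119, 140 and 108 on day 6. The day 6 libraries were all above the untreated ones, with a log2 fold change of 0.34 ± 0.109 (edgeR adjusted p = 0.0136). Psmc5 had the most negative value at day 6, -0.05 ± 0.193, from 103, 122 and 99 CPM untreated to 80.4, 148 and 83.4 CPM. Its replicate 2 was the highest and its replicates 1 and 3 the lowest of these 6 libraries, and without replicate 2 it was called lower at -0.40 (edgeR adjusted p = 0.00347), together with Psmc1. Psmc3 lies 22.9 kb from Spi1 on chromosome 2 (91054016 to 91059438, GRCm38). Its level was 203 ± 6.24 CPM untreated and 198 ± 29.8 CPM at day 6 while Spi1 rose. With TMM scaling it was not called at any day against untreated cells.

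Of the 11 non-ATPase subunits of the cap 2 rose and 4 fell at day 6, beside 35.0% and 32.9% of all genes. Without replicate 2 the count was 1 and 6, beside 36.1% and 34.6%. Psmd13, a lid subunit, measured 98.4, 116 and 102 CPM untreated, 118, 116 and 97.3 on day 2, 115, 142 and 135 on day 4, and 122, 149 and 133 on day 6. All day 6 libraries were above all untreated ones, and the log2 fold change was 0.31 ± 0.113 at day 4 and 0.36 ± 0.113 at day 6 (edgeR adjusted p = 0.0410 and 0.0136). Psmd4, which is a ubiquitin receptor, rose by 0.32 ± 0.118 at day 6 (edgeR adjusted p = 0.0298), a call that was lost without replicate 2 (0.104).

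Psmd7, the lid partner of the deubiquitinase Psmd14, had the largest fall of the subunits. It measured 157, 162 and 147 CPM untreated, 142, 126 and 150 on day 2, 129, 129 and 128 on day 4, and 78.1, 123 and 77.7 on day 6. Every day 4 and day 6 library was below every untreated library. The log2 fold change was -0.28 ± 0.147 at day 4, which did not pass, and -0.74 ± 0.150 at day 6 (edgeR adjusted p = 0.000794). Without replicate 2 the day 6 value was -0.996 (1.87e-07). The step from day 4 to day 6 was -0.46 ± 0.150 (edgeR adjusted p = 0.0239). Psmd14 itself was 110 ± 8.91 CPM untreated and 111 ± 16.6 CPM at day 6, with a log2 fold change of 0.01.

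The lid subunits Psmd3, Psmd11 and Psmd12 fell at day 6 by 0.42, 0.38 and 0.28 on the log2 scale (edgeR adjusted p = 0.0261, 0.0253 and 0.0400). In each of these 3 genes day 6 replicate 2 lay within the untreated range and replicates 1 and 3 below it: Psmd3 measured 103, 168 and 103 CPM against 161, 174 and 168 untreated. Without that library the 3 falls were -0.70, -0.57 and -0.39, and Psmd1, a scaffold of the base, and Psmd8 were called lower as well. The largest cap proteins, Psmd1 and Psmd2, were not called with all libraries, at log2 fold changes of -0.12 and 0.05.

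Among the 5 activators and inhibitors, 2 rose and 0 fell at day 6, beside 35.0% and 32.9% of all genes. Without replicate 2 the count was 2 and 1, beside 36.1% and 34.6%. Psme1 and Psme2 encode the subunits of PA28, the interferon-gamma-inducible ring that opens the core without ATP. Psme1 measured 106, 131 and 110 CPM untreated, 97.4, 118 and 104 on day 2, 196, 158 and 165 on day 4, and 207, 169 and 190 on day 6. The day 2 libraries overlapped the untreated ones and all later libraries lay above them. The log2 fold change was 0.59 ± 0.120 at day 4 and 0.71 ± 0.121 at day 6 (edgeR adjusted p = 0.00199 and 0.000197).

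Psme2 measured 8.08, 14.9 and 9.48 CPM untreated, 12, 10.3 and 12.2 on day 2, 23.3, 16.2 and 19.7 on day 4, and 22.4, 18.8 and 20.1 on day 6. It changed over the same interval as Psme1, with log2 fold changes of 0.86 ± 0.209 at day 4 and 0.91 ± 0.211 at day 6 (edgeR adjusted p = 0.00558 and 0.00200). Its level was 11.1 CPM per kb in untreated cells against 118 for Psme1. About 59.3% of the 50-base stretches of Psme2 occur in other annotated genes, so that level is uncertain. Both genes had their lowest day 6 value in replicate 2, unlike most of the subunits.

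Psme3, the nuclear PA28 subunit, measured 165, 213 and 173 CPM untreated and 141, 175 and 156 CPM at day 6. The groups overlapped, and the log2 fold change of -0.22 ± 0.110 did not pass (edgeR adjusted p = 0.0888). Without day 6 replicate 2 it was called lower, at -0.31 (0.0198). Psme4, the single-chain activator PA200, was 190 ± 13.0 CPM untreated and 185 ± 23.5 at day 6, and the inhibitor Psmf1 was 48.6 ± 2.92 and 41.8 ± 5.05 CPM. Neither was called at day 6 against untreated cells with TMM scaling, with or without that library. Upper-quartile factors and library totals called Psme3, Psme4 and Psmf1 lower at day 6.

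Of the 7 assembly chaperones, 2 were called lower at day 4 and 5 at day 6, beside 20.2% and 32.9% of all genes, and 0 were called higher. Without day 6 replicate 2 the day 6 count was also 5 lower and 0 higher, beside 34.6% and 36.1% of all genes. Psmg1 and Psmg2 form the dimer that nucleates the alpha ring. Psmg1, whose promoter holds the ETS letters printed with the sequences, measured 45.8, 50.5 and 41.4 CPM untreated, 39.3, 35.9 and 47.5 on day 2, 34.2, 29.7 and 27.4 on day 4, and 23.7, 31.5 and 25.4 on day 6. The untreated libraries were all above those of days 4 and 6. The log2 fold change was -0.59 ± 0.141 at day 4 and -0.77 ± 0.144 at day 6 (edgeR adjusted p = 0.00499 and 0.000429). Psmg2 measured 27.8, 27.1 and 19.5 CPM untreated, 24.1, 22.1 and 19.5 on day 2, 19.96, 19.4 and 19.5 on day 4, and 13.6, 14.1 and 12.1 on day 6. Its untreated replicate 3 was as low as the day 4 libraries and above those of day 6. The day 6 log2 fold change was -0.90 ± 0.151 (edgeR adjusted p = 0.000177), the largest fall of the 45 genes.

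Psmg3 and Psmg4 form the other alpha-ring dimer. Psmg3 measured 26.1, 31.0 and 28.2 CPM untreated, 26.1, 28.7 and 29.1 on day 2, 24.3, 24.9 and 20.8 on day 4, and 16.8, 18.3 and 16.6 on day 6, a log2 fold change of -0.72 ± 0.116 at day 6 (edgeR adjusted p = 0.000129). Psmg4 measured 15.9, 19.9 and 19 CPM untreated, 19, 20.1 and 19.7 on day 2, 20.7, 19.1 and 20.3 on day 4, and 9.38, 14.8 and 11.1 on day 6, a log2 fold change of -0.62 ± 0.158 (edgeR adjusted p = 0.00380). In both genes the day 6 libraries were below all others. Of the 50-base stretches of the Psmg3 transcript, 22.7% also occur in Gm26938, so its level is uncertain. For the called genes Psmd11, Psmd13 and Psme1 the share found in other genes was 18.9%, 15.8% and 14.1%. The step from day 4 to day 6 was -0.56 for Psmg2, -0.43 for Psmg3 and -0.75 for Psmg4 (edgeR adjusted p = 0.0100, 0.00930 and 0.00211), and -0.18 for Psmg1, which did not pass.

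Psmd5, Psmd9 and Psmd10 are chaperones of the 19S base. Psmd5 measured 92.6, 91.6 and 96.4 CPM untreated, 88.4, 91.0 and 87.3 on day 2, 68.9, 61.2 and 68.4 on day 4, and 61.0, 68.3 and 53.7 on day 6. Each later group lay below the untreated one, at day 2 without passing the test. The log2 fold change was -0.50 ± 0.0908 at day 4 and -0.61 ± 0.0920 at day 6 (edgeR adjusted p = 0.000905 and 7.13e-05, the smallest among the 45 genes). Psmd9 measured 22.8, 27.7 and 24.6 CPM untreated and 24.7, 35.0 and 23.4 CPM at day 6, and Psmd10 was 33.5 ± 2.97 and 33.8 ± 4.97 CPM. These 2 base chaperones were not called, and the log2 fold change of Psmd9 was 0.15 with all libraries and -0.06 without replicate 2.

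The share of the 7 chaperones in all reads from the 47 genes needs no scaling between libraries. It was 5.34% to 5.81% in the untreated libraries, 5.40% to 5.54% on day 2, 4.09% to 4.27% on day 4, and 3.86% to 4.22% on day 6. The day 4 and day 6 libraries were all below the untreated and day 2 libraries, day 6 replicate 2 included. The 20S and 19S subunits together held 80.5% to 84.1% of these reads in all libraries. The falls of Psmg1 and Psmd5 passed the test from day 4, and those of Psmg2, Psmg3 and Psmg4 at day 6.

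**Figure D5:**
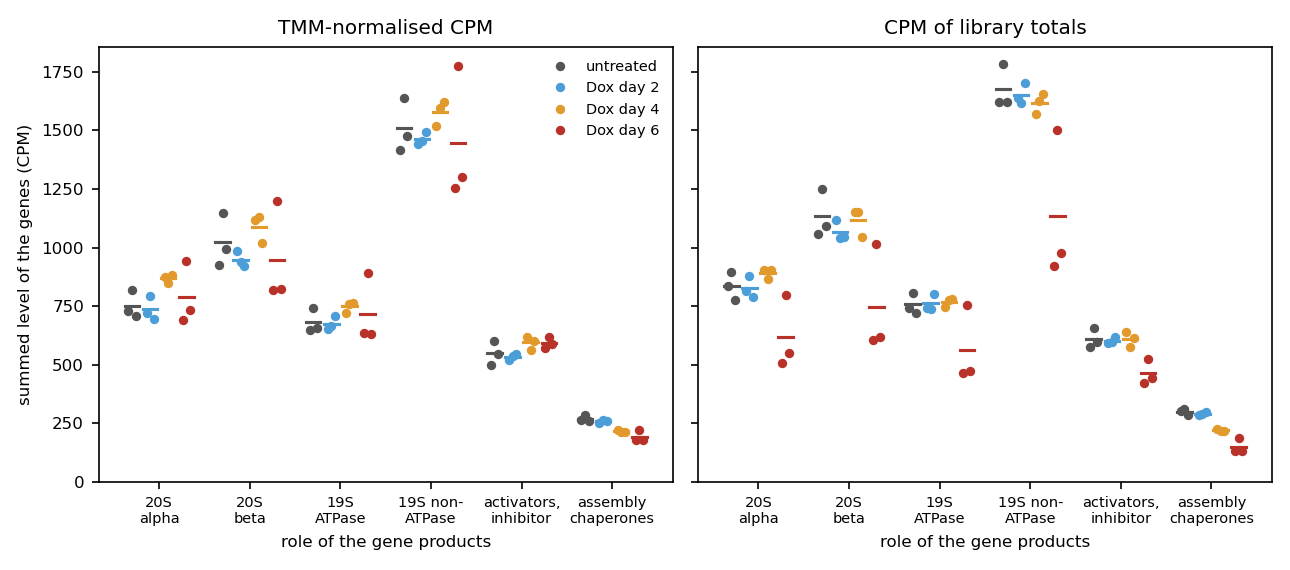
Summed level of the genes of each role in each library (points) and the group mean (lines), after TMM scaling (left) and in CPM of the library total (right). The assembly chaperones are lower at days 4 and 6 in both panels, while for the core and cap subunits day 6 replicates 1 and 3 are below all untreated libraries in the right panel. Day 6 replicate 2 is above all untreated libraries for these roles in the left panel, and in the right one within their range for the alpha subunits and ATPases and below it for the other 2 roles.

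Of the 2 genes named after a partner, Psmc3ip, whose product works in homologous recombination, fell from 15.9, 21.7 and 14.5 CPM untreated to 14.0, 10.2 and 11.6 on day 4 and 10.2, 9.97 and 11.1 on day 6. The later libraries were all below the untreated ones. The log2 fold changes were -0.54 ± 0.177 and -0.73 ± 0.183 (edgeR adjusted p = 0.0258 and 0.00321). Of the 50-base stretches of its transcript, 27.1% also occur in Mlx, so its level is uncertain. Psme3ip1 was 66.6 ± 3.42 CPM untreated and 59.0 ± 1.75 at day 6 and was not called.

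The day 6 counts also depended on how the libraries were scaled. The reads of the 47 genes were 0.518% to 0.580% of all counts in untreated libraries, and 0.310%, 0.483% and 0.324% in the day 6 libraries. Library totals moved the median log2 fold change of all tested genes at day 6 to -0.52 and that of the proteasome genes to -0.58. On that scale 36 proteasome genes were lower and 0 higher, against 56.1% and 18.9% of all genes. Upper-quartile factors gave 19 lower and 2 higher (44.1% and 26.3% of all genes), with medians of -0.33 and -0.25. The 10 falls held under both. Of the 6 rises, Psme1 and Psme2 were still called with upper-quartile factors and none with library totals, where Psma1, Psmc2, Psmd4 and Psmd13 turned negative.

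Over 21 alternative settings, all those run except a 1.5-fold threshold, 7 of the 10 falls at day 6 held: Psmd7, Psmd5, Psmg1, Psmg2, Psmg3, Psmg4 and Psmc3ip. None of the 6 rises did. At day 4 the rises of Psma1, Psme1 and Psme2 and the falls of Psmd5 and Psmg1 held in all 21. Leaving out 1 library ended several other calls. The day 6 falls of Psmd3 and Psmd11 were lost without day 6 replicate 1 (-0.30 and -0.27), day 6 replicate 3 (-0.30 and -0.32) or untreated replicate 2 (-0.40 and -0.28), that of Psmd3 also without untreated replicate 3 (-0.42), and that of Psmd12 in 10 of 12 such fits (-0.30 to -0.18). The day 6 rises of Psmc2 (0.29), Psmd13 (0.31) and Psmd4 (0.23) were lost without untreated replicate 1, and that of Psmd4 also without untreated replicate 3 (0.30). At day 4 the rise of Psmd13 was lost in 7 of 12 fits (0.26 to 0.31) and the fall of Psmc3ip in 3 (-0.52 to -0.35). The step from day 4 to day 6 was lost in 4 of 12 fits for Psma7 (-0.56 to -0.46), 5 for Psmd7 (-0.47 to -0.35) and 6 for Psma6 (0.19 to 0.29). Against the 1.5-fold threshold only Psmg2 at day 6 was still called.

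Factors that act on the proteasome were read from a list of 16 accessory genes, all tested: 1 rose and 3 fell at day 4, where 42.4% of all genes were called. At day 6, 4 rose and 4 fell, beside 67.9% of all genes, and without replicate 2 the count was 4 and 5, Pomp being the added fall. With library totals the count was 1 and 11, beside 18.9% and 56.1% of all genes. Nfe2l2 was then the rise, Nfe2l1, Adrm1 and Pomp were among the falls, and Sem1 was not called. The stress factor Nfe2l2 rose from 168 ± 34.8 CPM untreated to 353 ± 45.7 CPM at day 6, a log2 fold change of 1.07 ± 0.136 (edgeR adjusted p = 1.84e-05). Nfe2l1, the factor that restores proteasome genes when activity is lost, was 137 ± 7.28 and 146 ± 10.9 CPM and was not called with TMM scaling. Sem1, the smallest lid subunit, which the naming rule leaves out, rose from 175 ± 24.1 to 299 ± 37.9 CPM (log2 fold change 0.77, edgeR adjusted p = 0.000168). Usp14, a deubiquitinase of the cap, fell from 106 ± 13.0 to 61.5 ± 14.7 CPM (-0.78, 0.000367). The ubiquitin receptor Adrm1 was 14.2 ± 2.33 and 12.1 ± 2.03 CPM, and the core assembly factor Pomp 117 ± 14.5 and 112 ± 27.1 CPM. With TMM scaling and all libraries neither was called at day 6 against untreated cells. Adrm1 fell from day 4 to day 6 by 0.48 on the log2 scale (edgeR adjusted p = 0.0315).

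In the list of ubiquitin genes and the shuttle factors that carry ubiquitin-tagged proteins to the cap, 16 of 17 were tested. At day 6, 3 rose and 6 fell, again beside 67.9% of all genes, and without replicate 2 the count was 3 and 8. With library totals it was 0 and 14, beside 18.9% and 56.1% of all genes. Ubqln4 fell with the smallest adjusted p, from 113 ± 5.05 to 68.2 ± 1.5 CPM (log2 fold change -0.73, edgeR adjusted p = 1e-05). The ubiquitin-ribosomal fusion gene Rps27a had the largest fall, by 0.78 on the log2 scale (edgeR adjusted p = 0.000432), and Ufd1 the largest rise, 0.39 (0.00173).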

How the data were processed

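Each of the 12 deposited files lists unnormalised whole-number counts of reads for 27179 genes and a gene length. Per the submitters' processing notes, mm10, featureCounts, CASAVA 1.8.2, limma 3.22.0 and edgeR 3.8.2 were used. The sources used here give neither aligner nor strandedness. RefSeq (GRCm38.p6) named 25275 identifiers, and the 1904 unnamed ones held 0.493% to 1.07% of counts. Genes were filtered with filterByExpr (12057 kept), scaled by TMM and fitted in 1 model of group alone (edgeR 4.0.16 in R 4.3.3, robust glmQLFit, two-sided tests, 8 residual degrees of freedom, called at an adjusted p under 0.05). The TMM factors were 0.737 to 0.847 at day 6 and 1.02 to 1.15 elsewhere. SE is the log2 fold change over the root of F. The biological coefficient of variation was 14.3%. On simulated data for day 6 against untreated, with 11904 genes, 40% of planted 1.5-fold and 70% of 2-fold changes were recovered. Only 50 genes per fold size were planted, far fewer than the genes called in the data, so these shares do not carry over.

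The members, lists and rules were chosen with earlier results of these data known. Values in every library were set to be given for Psmb5, Psmb6 and Psmb7 and, per role, for the highest and lowest day 6 fold change; Psma6, Psma7, Psmc3ip, Psmd3, Psmd5, Psme1, Psmg1, Psmg3 and Psmg4 were added after their values were seen. Ratios used a pseudocount of 0.5. Alternatives were DESeq2 1.42.0, limma voom (3.58.1), 3 other scalings, 2 other filters, a 1.5-fold threshold, 2-group fits, a replicate block and each library left out. Same-numbered libraries did not deviate together (mean correlation 0.00567), so numbers were not taken as pairs.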

Additional observations from a re-analysis of the deposited data

Results flagged for a closer look

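These results are listed because the same gene's difference changed from 1 day of Dox to the next by a test of that step itself. From day 2 to day 4, edgeR called log2 differences of 0.77 for Psme2, 0.70 for Psme1, 0.39 for Psma1 and 0.35 for Psmd4. Over the same step Psmc3ip differed by -0.52, Psmg1 by -0.43 and Psmd5 by -0.43. From day 4 to day 6 the called differences were 0.27 for Psma6, -0.43 for Psmg3, -0.46 for Psmd7, -0.56 for Psmg2, -0.60 for Psma7 and -0.75 for Psmg4. The 3 Psmg falls of the second step were also called in each of 21 alternative settings, all those run except the 1.5-fold threshold. Of the first step, the calls of Psme2, Psma1, Psmg1, Psmd4 and Psmc3ip were lost in 3, 5, 6, 8 and 8 of 12 fits that each left out 1 library.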

How the results depend on the processing

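At day 2 the count stayed at 0 in both directions in every setting run. DESeq2, limma voom, RLE factors and the stricter filter changed no count by over 1.5 times. Upper-quartile factors gave 7 lower genes at day 4, beside 26.5% of all genes. At day 6 they gave 2 higher and 19 lower, beside 26.3% and 44.1%. From day 2 to day 4 they gave 2 higher, beside 12.3%, and from day 4 to day 6 0 higher and 12 lower, beside 17.3% and 32.8%. Library totals gave 7 lower at day 4, 0 higher and 36 lower at day 6, 2 higher and 5 lower from day 2 to day 4, 0 higher and 34 lower from day 4 to day 6, and 34 over the 4 groups. The median at day 4 was then -0.063 and -0.087, and that at day 6 -0.58 with library totals. The 1.5-fold threshold left 0 genes in all comparisons but day 6, where 1 was lower. Fits of only the 2 groups compared gave 8 higher at day 4, 11 higher from day 2 to day 4, and 0 higher and 3 lower from day 4 to day 6. Without a filter 1 was lower from day 2 to day 4 and 0 higher from day 4 to day 6. For the threshold, 2-group and unfiltered fits the share of all genes was not taken.

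The numbers do not pair the libraries, and with the replicate block the count was 5 higher against 3 lower at day 4, 7 against 11 at day 6, 1 lower from day 2 to day 4 and 0 higher from day 4 to day 6. The paired exact permutation p of the 3 ratios at day 6 were 0.5, 0.75 and 0.25, where 0.25 is the smallest possible.

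Leaving out each library in turn gave 3 to 9 higher, 2 to 5 lower on day 4, 3 to 7 higher, 7 to 23 lower on day 6, 1 to 8 higher and 1 to 3 lower from day 2 to day 4, 0 to 1 higher and 3 to 23 lower from day 4 to day 6, and 11 to 31 over the 4 groups. The upper ends of 9, 5, 23, 8, 23 and 31 were those without day 6 replicate 2, and the 3 higher at day 6 was that without untreated replicate 1. Without day 6 replicate 2 the shares of all genes in the same order were 25.4%, 24.8%, 34.6%, 18.9%, 28.0% and 74.8%. The median ranged over these fits from -0.0895 to 0.0108 for day 2, from 0.0057 to 0.0999 for day 4 and from -0.29 to 0.04 for day 6.

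The sign turned at day 6 for Psma1 (-0.033), Psmc2 (-0.16), Psmd13 (-0.15), Psmd4 (-0.19), Psmb3 (-0.17), Psmd9 (-0.35) and Psmb7 (-0.40) with library totals, for Psmb7 and Psmd9 with upper-quartile factors (-0.14 and -0.089) and for Psmb7 without day 6 replicate 2 (-0.10; 0.19 without untreated replicate 2), for Psmb6 without day 6 replicate 1 (0.027; -0.38 without day 6 replicate 2), for Psmd9 over the fits leaving out 1 library (-0.057 to 0.27), for Psmc5 over the same fits (-0.40 to 0.10), and for Psma6 from day 4 to day 6 with library totals (-0.13). The cause was not tested. Calls of 1.5-fold changes can be incomplete, by a share that the simulation cannot give. It recovered 40% of those planted in random genes of any level. It planted only 50 genes per fold size among 11904, whereas 67.9% of all genes were called at day 6 in the data. The adjustment over all genes is then stricter in the simulation than in the data. Depth was not varied in the simulation, so the part of depth was not tested.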
